A study of Mus musculus with 29 samples.

Results

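The 9 genes described here encode 5 enzymes of ganglioside synthesis (St3gal5, St8sia1, B4galnt1, St3gal2 and St8sia5) and 4 surface proteins proposed as immunotherapy targets in neuroblastoma (Gpc2, Cd276, Ncam1 and L1cam). They were taken by symbol, as every probe set that the platform annotation assigns to exactly 1 of these symbols, which gave 22 probe sets of 45037. Each gene is represented by its probe set of highest mean over all arrays, as are all 18193 genes measured.

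The series profiled caspase-8 deficient and caspase-8 wild type mice of the TH-MYCN line, in which the TH promoter drives MYCN in cells of the sympathetic lineage and neuroblastoma arises. All 29 samples carry the TH-MYCN genotype label and strain 129X1/SvJ. They comprise 17 caspase-8 deficient and 7 wild type primary abdominal tumours, and 3 deficient and 2 wild type samples of total bone marrow. The labels give no age, no form of the deficient allele and no cell type in which it is deleted. Nor do they tie samples to separate animals, and the p-values thus rest on the spread from sample to sample, which may be technical. Values are log2 expression after RMA, on 1 mouse 3' expression array per sample.

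Gangliosides are glycosphingolipids that carry sialic acid and are abundant on neural cells. St3gal5 adds the first sialic acid to lactosylceramide and makes GM3, St8sia1 adds a further one and makes GD3, and B4galnt1 adds N-acetylgalactosamine to GD3 to make GD2, the antigen of the antibodies used against neuroblastoma. B4galnt1 also acts on GM3, and St3gal2 and St8sia5 add sialic acid to the more complex products downstream.

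Libraries matched their tissue labels. Of 14 sympathoadrenal marker genes, 12 were higher in tumours and 1, the noradrenaline transporter gene Slc6a2, named after its value was seen, was lower. The mean of that list lay between 9.59 and 10.2 in deficient and between 9.36 and 10.3 in wild type tumours, against 4.27 to 4.29 in deficient and 4.04 to 4.34 in wild type marrow. All 10 granulocyte markers, 6 of 7 erythroid, 9 of 9 B cell and 8 of 8 T and NK cell markers were lower in tumours. The comparison between tissues is therefore also one between cell types, whose part in each difference was not tested. In these bulk samples fewer cells of a type and less RNA per cell cannot be told apart. Correlations between arrays of a group ran from 0.972 to 0.993. Casp8 averaged 5.62 ± 0.44 (SD, n = 17) in deficient and 5.88 ± 0.57 (SD, n = 7) in wild type tumours, and 9.14 ± 0.12 (n = 3) in deficient and 9.46 ± 0.23 (n = 2) in wild type marrow; the labels do not say which part of the gene is deleted.

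The first question was how the ganglioside enzymes and surface targets differ between tumours and bone marrow, a common site of neuroblastoma metastasis. St8sia1 and the surface proteins Gpc2, Cd276, Ncam1 and L1cam were higher in tumours, and St3gal5 and St3gal2 were lower. B4galnt1 was lower with its brighter probe set and higher with its dimmer one, and St8sia5 did not pass the test. The fit was limma over 18193 genes in 4 groups of tissue and genotype, with the tissue difference averaged over genotypes and calls at a Benjamini-Hochberg adjusted p under 0.05. In that fit 76.4% of all genes were called, 34.2% higher and 42.2% lower in tumours, so that 5 higher and 3 lower of 9 members, the brighter probe set of B4galnt1 among the lower, must be read against that background. Of all calls 44.7% were higher in tumours, and 30.8% with arrays centred on their medians, a scaling that moved the median of all genes to -0.39. The median difference was 1.08 over the members and -0.10 over all genes. The files hold no detection calls, so whether a signal exceeds background was not tested. This bears most on the marrow signals of Gpc2, Cd276 and St8sia1, with means of 3.50, 4.79 and 5.14 beside array medians of 4.78 to 4.91, and each fold below is a ratio of signals. For the same 8 members no tumour overlapped any marrow sample, which held for 37.8% of all genes, 20.9% in the higher and 16.9% in the lower direction.

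**Figure D1:**
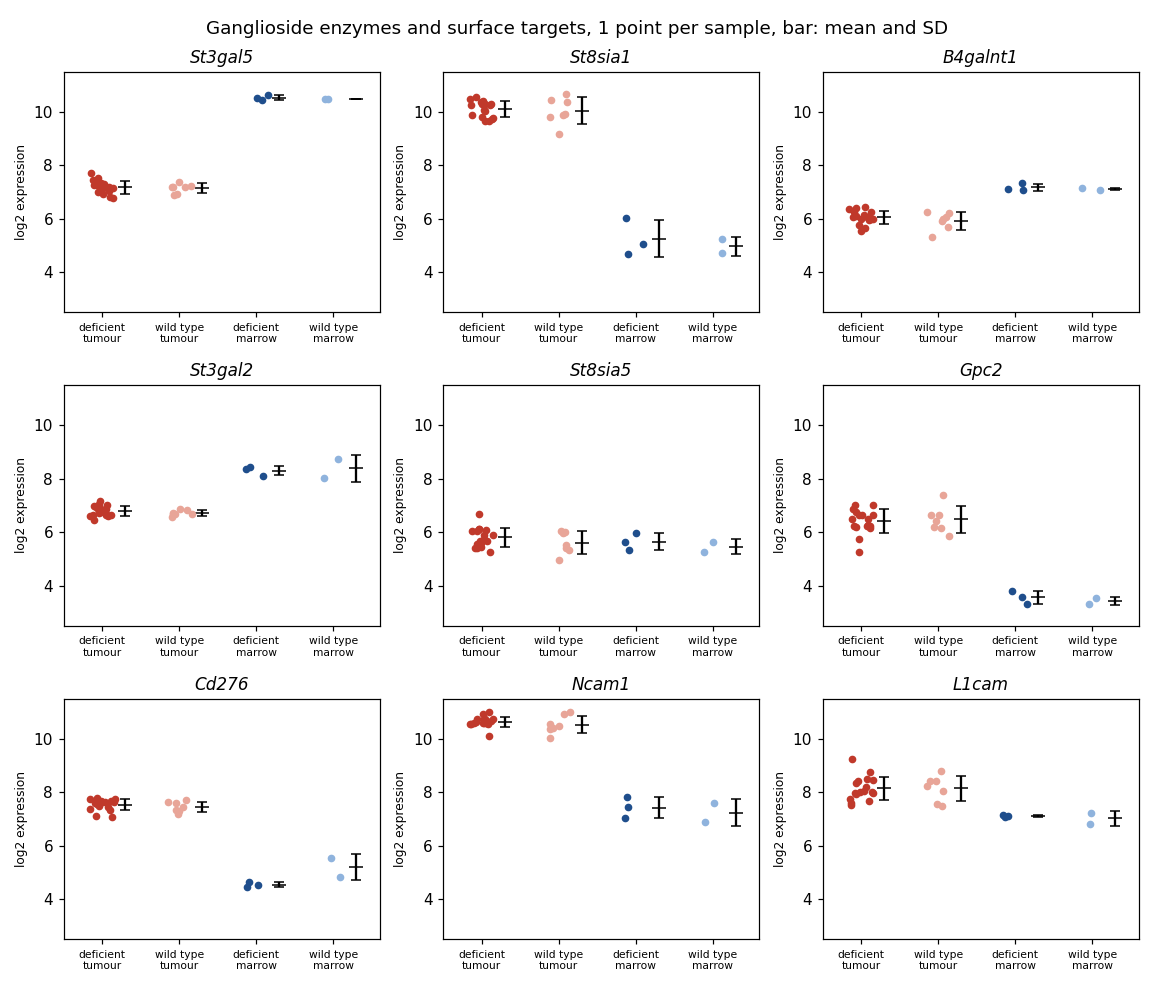
Log2 expression (vertical axis, the same range in every panel) of the 9 genes in deficient tumours, wild type tumours, deficient marrow and wild type marrow, with 1 point per sample and the mean and SD beside each group. St8sia1, Gpc2, Cd276, Ncam1 and L1cam lie higher in every tumour than in every marrow sample, St3gal5, St3gal2 and B4galnt1 lower, and St8sia5 overlaps; levels of different genes are not comparable.

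St8sia1, the GD3 synthase, had the largest difference of the members. It ran from 9.65 through a median of 10.25 to 10.57 in deficient tumours and from 9.18 through 9.93 to 10.68 in wild type tumours, against 5.04, 4.67 and 6.02 in deficient marrow and 5.22 and 4.72 in wild type marrow. The lowest tumour lay 3.16 above the highest marrow sample. The log2 difference was 4.97 (SE 0.20, limma adjusted p = 9.54e-20), a 31.3-fold higher signal in tumours, and 99.0% of all genes had a lower difference. Its other probe sets were dimmer, with tumour means of 5.34 and 4.58, and differed by 1.33 and 0.94 in the same direction. The direction was the same for the 3 probe sets, while the size was not.

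St3gal5, the GM3 synthase that supplies the substrate of St8sia1, went the other way. It ran from 6.78 through 7.18 to 7.72 in deficient tumours and from 6.89 through 7.20 to 7.39 in wild type tumours, against 10.64, 10.45 and 10.51 in deficient marrow and 10.48 in each wild type marrow sample. Marrow values were close to each other and all above those of tumours. The difference was -3.34 (SE 0.11, limma adjusted p = 6.42e-22), a 10.1-fold higher signal in marrow, and the gene's other probe set was at -3.65.

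B4galnt1, the GD2 and GM2 synthase, gave opposite directions with its 2 probe sets. The brighter ran from 5.53 through 6.05 to 6.45 in deficient tumours and from 5.29 through 6.01 to 6.24 in wild type tumours, against 7.33, 7.13 and 7.07 in deficient marrow and 7.15 and 7.09 in wild type marrow. With it tumours lay below marrow by 1.16 on the log2 scale (log2 difference -1.16, SE 0.13, limma adjusted p = 3.08e-09). The dimmer probe set averaged 5.44 ± 0.16 (SD, n = 24) in tumours and 5.13 ± 0.09 (SD, n = 5) in marrow, a difference of 0.30 (SE 0.08, limma adjusted p = 0.00244 over all probe sets). After quantile normalization anew over all probe sets that second value was 0.16 and did not pass (limma adjusted p = 0.0982). The direction of B4galnt1 between the tissues is therefore not settled by these arrays.

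Of the enzymes that extend the chain, St3gal2 was lower in tumours and St8sia5 was not called. St3gal2, which sialylates the terminal galactose of complex gangliosides, ran from 6.46 through 6.75 to 7.16 in deficient tumours and from 6.58 through 6.70 to 6.89 in wild type tumours, against 8.37, 8.42 and 8.12 in deficient marrow and 8.75 and 8.04 in wild type marrow. Its difference was -1.59 (SE 0.10, limma adjusted p = 9.75e-15), and its other probe sets were at -2.02 and -0.95. St8sia5, which makes polysialylated gangliosides, ran from 5.24 through 5.76 to 6.67 in deficient tumours and from 4.94 through 5.53 to 6.06 in wild type tumours, against 5.64, 5.96 and 5.32 in deficient marrow and 5.26 and 5.65 in wild type marrow. All groups overlapped. Its difference of 0.16 had a 95% interval from -0.21 to 0.53. It turned sign to -0.13 with arrays centred on their medians and to -0.074 after quantile normalization anew, both over the 18193 genes. With the same scalings done over all 45037 probe sets it was 0.11 and -0.038.

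Gpc2, a glypican, that is, a heparan sulfate proteoglycan anchored to the cell surface, ran from 5.26 through 6.48 to 7.02 in deficient tumours and from 5.87 through 6.43 to 7.40 in wild type tumours. In marrow it was at 3.30, 3.56 and 3.80 in deficient and 3.52 and 3.32 in wild type samples. The lowest tumour lay 1.45 above the highest marrow sample. The difference was 2.95 (SE 0.21, limma adjusted p = 2.30e-13), 7.75-fold, from the only probe set assigned to Gpc2 alone. A probe set assigned to both Gpc2 and Gal3st4, left out by the rule, did not show it, with a difference of means of -0.098.

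Cd276 encodes B7-H3, an immune checkpoint molecule of the B7 family found on many solid tumours. It ran from 7.06 through 7.62 to 7.80 in deficient tumours and from 7.19 through 7.43 to 7.71 in wild type tumours, against 4.44, 4.62 and 4.54 in deficient marrow and 5.53 and 4.84 in wild type marrow. Wild type marrow 1 was the highest marrow sample and still 1.53 below the lowest tumour. The difference was 2.64 (SE 0.11, limma adjusted p = 4.99e-19), 6.22-fold.

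Ncam1, the neural cell adhesion molecule also known as CD56, ran from 10.12 through 10.62 to 10.99 in deficient tumours and from 10.03 through 10.49 to 10.999 in wild type tumours. In marrow it was at 7.81, 7.02 and 7.45 in deficient and 6.87 and 7.58 in wild type samples. The lowest tumour lay 2.22 above the highest marrow sample. The difference was 3.26 (SE 0.13, limma adjusted p = 1.87e-19), 9.60-fold. Of its 7 probe sets, the 4 brightest were higher in tumours by 3.26, 3.82, 3.29 and 1.46, while the 3 dimmest, with tumour means of 4.38, 3.70 and 2.82, were at -0.049, 0.17 and -0.16 and did not pass.

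L1cam, an adhesion molecule of growing axons, had the smallest difference of the 4 surface proteins. It ran from 7.51 through 8.02 to 9.23 in deficient tumours and from 7.47 through 8.24 to 8.82 in wild type tumours, against 7.14, 7.09 and 7.11 in deficient marrow and 6.82 and 7.22 in wild type marrow. The lowest tumour lay only 0.25 above the highest marrow sample. The difference was 1.08 (SE 0.21, limma adjusted p = 3.30e-05), 2.11-fold, and the dimmer probe set, at 3.17 ± 0.16 in tumours and 3.31 ± 0.09 in marrow, was at -0.16 without passing. With arrays centred on their medians over all probe sets, that probe set was at -0.21 and passed (limma adjusted p = 0.0261). The dimmest of Ncam1 also passed, at -0.21 (limma adjusted p = 0.046). Both were opposite to the brightest probe set of their gene. After quantile normalization anew over all probe sets they were at 0.023 and -0.0093 and did not pass.

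**Figure D2:**
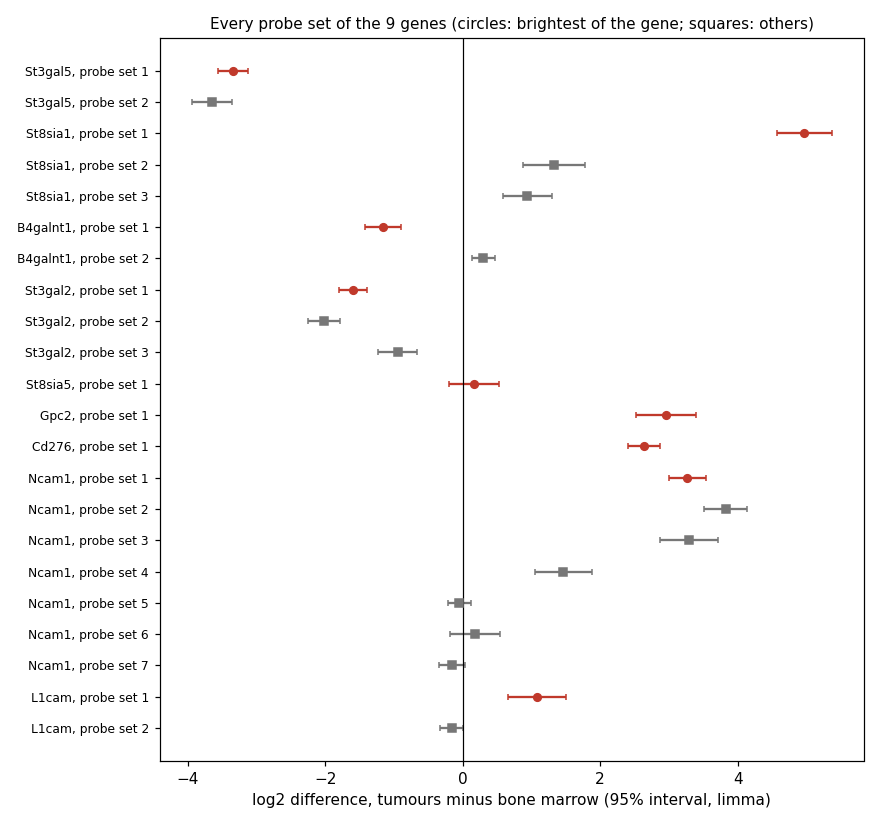
Log2 difference of tumours minus bone marrow with its 95% interval for each of the 22 probe sets, numbered by falling mean within a gene; circles mark the brightest probe set and squares the others. B4galnt1 is the gene whose probe sets fall on opposite sides of 0 with both past the test, at -1.16 and 0.30.

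Over all probe sets, 11 of the 22 were higher and 6 lower in tumours and 5 did not pass, in a fit that called 70.3% of 45037 probe sets. All marrow samples carry numbers of the higher of the 2 series of numbers in the sample titles, whose meaning the labels do not give. Against the 14 tumours of that series alone, St8sia1 differed by 5.23, St3gal5 by -3.26, B4galnt1 by -1.29, St3gal2 by -1.65, Gpc2 by 2.76, Cd276 by 2.56, Ncam1 by 3.25 and L1cam by 1.06, and all 8 passed.

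Promoter sequence is shown for the 2 members of opposite tissue difference at consecutive steps, St8sia1 and St3gal5, and for Gpc2. MYC family proteins bind the E-box CACGTG, and many lineage factors the general E-box CANNTG. Each line gives the 250 bases of 1 RefSeq promoter window, before a listed start in GRCm38.p6, 5′ to 3′ on the gene's strand. CANNTG matches are in capitals. The St8sia1 window lies on the minus strand at chr6:142964453-142964702, that of St3gal5 on the plus strand at chr6:72097358-72097607 and that of Gpc2 on the minus strand at chr5:138279938-138280187. The St8sia1 window lies inside the annotated gene, chr6:142821541-142989528, and not at its 5′ end. The windows of St3gal5 and Gpc2 overlap their genes, annotated at chr6:72097552-72154571 and chr5:138273657-138280026. Whether these starts are used in these samples was not tested.
St8sia1: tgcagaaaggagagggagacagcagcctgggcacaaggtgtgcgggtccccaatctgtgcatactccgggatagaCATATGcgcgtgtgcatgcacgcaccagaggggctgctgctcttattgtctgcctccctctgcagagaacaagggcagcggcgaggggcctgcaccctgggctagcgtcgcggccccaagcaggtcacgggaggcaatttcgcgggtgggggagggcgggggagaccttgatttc
St3gal5: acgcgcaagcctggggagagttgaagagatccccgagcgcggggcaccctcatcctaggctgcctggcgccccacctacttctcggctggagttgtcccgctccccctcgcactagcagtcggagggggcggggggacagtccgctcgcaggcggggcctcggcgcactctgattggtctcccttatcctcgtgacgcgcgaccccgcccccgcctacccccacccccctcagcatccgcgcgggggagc
Gpc2: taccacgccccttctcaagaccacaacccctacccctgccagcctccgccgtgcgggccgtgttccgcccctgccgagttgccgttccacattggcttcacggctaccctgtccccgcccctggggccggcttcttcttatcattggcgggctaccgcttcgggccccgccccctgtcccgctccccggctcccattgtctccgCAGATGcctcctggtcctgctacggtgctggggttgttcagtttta
CACGTG was in none of the 3 windows, and 6.02% of 32851 RefSeq promoter windows of this length hold it. CANNTG occurred 1 time in the St8sia1 window (CATATG) and 1 time in that of Gpc2 (CAGATG), and 66.2% of all windows hold it. Both motifs read the same on either strand, and CACGTG is a case of CANNTG. The windows had GC contents of 63.6% for St8sia1, 71.6% for St3gal5 and 66.4% for Gpc2, against a median of 52.4% over all windows.

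The genes around these enzymes moved in both directions between tumours and marrow, as did all genes, of which 34.2% were called higher and 42.2% lower. Upstream, 4 of 13 genes of ceramide synthesis were higher in tumours and 4 lower (3 and 8 with arrays centred on their medians), among them Sptlc2, a subunit of the committing serine palmitoyltransferase, at -1.29, the desaturase Degs1 at -1.16 and the ceramide synthase Cers4 at 1.01. Of 12 other genes of ganglioside assembly, 7 were higher and 4 lower, with a list median of 0.51. The lactosylceramide synthases B4galt5 and B4galt6, which make the substrate of St3gal5, were higher by 1.46 (SE 0.16) and 0.998 (SE 0.095), and Casd1, which O-acetylates sialic acids, by 1.28 (SE 0.10). St3gal1, a sialyltransferase of the same acceptor class as St3gal2, was lower by 1.82 (log2 difference -1.82, SE 0.15). Of 6 genes of competing glycolipid branches, 1 was higher and 2 lower, and the globoside synthase B3galnt1 stood at 4.29 (SE 0.15).

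Most genes of sialic acid supply and ganglioside breakdown were lower or not called in tumours. Of all genes 42.2% were called lower and 34.2% higher. Of 8 supply genes 5 were lower and 1 higher. Cmas, which activates sialic acid to its CMP form, was at -1.27, the synthase Nans at -1.39 and the esterase Siae at -1.13, while Slc35a1, which carries the activated sugar into the Golgi, was at 1.26. Of 13 breakdown genes 4 were lower, 1 was higher and 8 did not pass, against 10 lower and 0 higher with arrays centred on their medians. The sialidase Neu3 was at -2.37 (SE 0.13) and the GM2 activator Gm2a at -1.64 (SE 0.19), while Glb1, the lysosomal beta-galactosidase, named after its value was seen as the 1 gene called higher, was at 0.43.

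NCAM1 is the main protein that carries polysialic acid, and the polysialyltransferases split by tissue. St8sia2 was higher in tumours by 2.03 (SE 0.14), with 7.72 ± 0.27 (SD, n = 24) in tumours and 5.67 ± 0.37 (SD, n = 5) in marrow. St8sia4 was lower, with 6.15 ± 0.87 in tumours and 10.21 ± 0.29 in marrow (log2 difference -4.06, SE 0.40). Among the further members of that sialyltransferase family, St8sia3 was at 2.98 and St8sia6 at -1.38.

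The relatives of the surface targets did not all follow them, and several had signals below the array medians of 4.78 to 4.91 in both tissues. Their counts stand beside 34.2% of all genes called higher in tumours and 42.2% called lower. Of 6 genes of the glypican list, Gpc3 and Gpc6 were higher by 3.97 and 3.57, Gpc4 was at -1.10, and 2 did not pass. Notum, which was on that list but is not a glypican, was at -0.53, with means of 3.97 in tumours and 4.53 in marrow. With arrays centred on their medians 2 of the 6 were higher and 4 lower. Of 17 genes of heparan sulfate synthesis 7 were higher and 7 lower (5 and 8 with arrays centred on their medians), from Hs6st2 at 3.13 to Hs6st1 at -2.21. Hs6st2 varied widely, with an SD of 2.01 over tumours and 0.89 over marrow samples, and its difference had an SE of 0.91. None of the 12 relatives of Cd276 in the B7 and CD28 families was higher in tumours and 10 were lower, led by Vsir at -4.48 and Btla at -4.41, with Cd274, which encodes PD-L1, at -1.14 and the costimulatory receptor Cd28 at -1.11. Cd28 averaged only 2.92 in tumours and 4.06 in marrow. Pdcd1lg2, Cd80, Vtcn1, Ctla4 and Icos also averaged below the array medians in both tissues. Whether these signals exceed background was not tested. Among 12 adhesion molecules related to L1cam and Ncam1, 5 were higher and 2 lower, and Cntn1 at 4.54, Nrcam at 3.98 and Nfasc at 2.64 were the largest, followed by Ncam2. Chl1, Cntn3, Cntn4, Cntn5 and Cntn6 were dim, with means from 2.63 to 3.40 over both tissues. Whether those signals exceed background was not tested. With arrays centred on their medians the median of this list turned from 0.19 to -0.097. Of 13 other proposed surface targets 7 were higher and 6 lower (4 and 6 with arrays centred on their medians), with Dlk1 at 7.08, Robo1 at 4.13, the receptor tyrosine kinase Alk at 3.67 and Cd47 at -4.03.

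**Figure D3:**
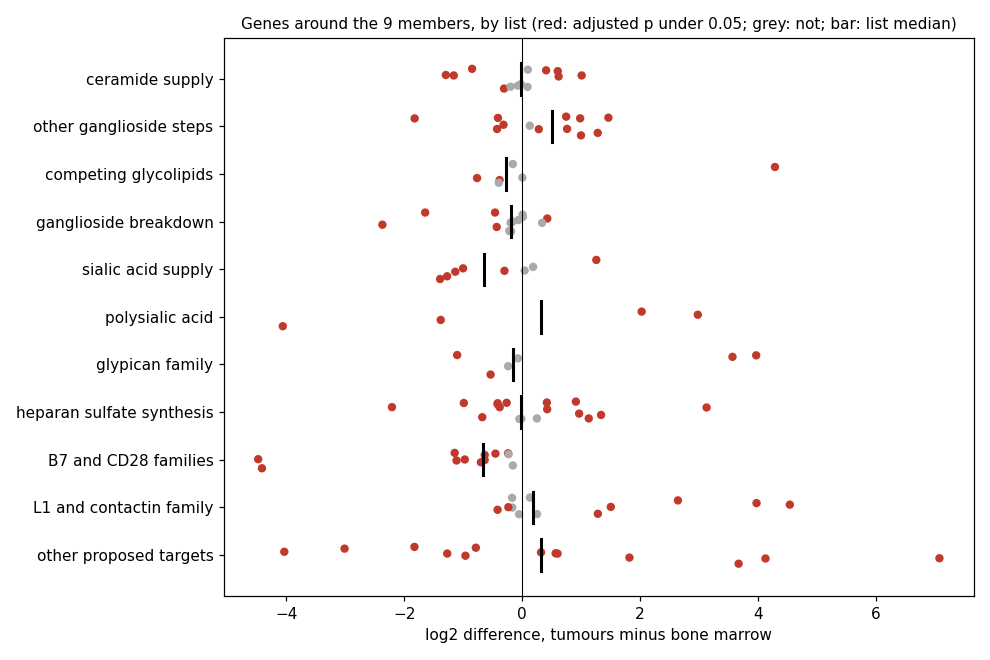
Log2 difference of tumours minus bone marrow for each measured gene of 11 lists around the members, with genes past an adjusted p of 0.05 in red, others in grey and the list median as a bar. The B7 and CD28 families hold no gene higher in tumours past the test, whereas Cd276 itself was at 2.64. Pdcd1lg2, Cd80, Vtcn1, Cd28, Ctla4 and Icos of these families averaged below the array medians in both tissues.

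The second question was whether caspase-8 deficiency went with other levels of these genes. In tumours none of the 9 members was called, nor was any of 18193 genes (limma, 0.0% called; 583 genes, 3.2%, had an unadjusted p under 0.05, none of them a member; the members' adjusted p was 0.9997 throughout). Differences of deficient minus wild type tumours ran from -0.067 for Gpc2 to 0.19 for St8sia5, with 0.13 for B4galnt1, 0.11 for Ncam1, 0.089 for Cd276, 0.077 for St3gal2, 0.066 for St8sia1, 0.037 for St3gal5 and 0.0044 for L1cam. The 95% intervals reached 0.16 to 0.40 to each side, and the largest bound was 0.524, so that a 2-fold difference in signal lay outside all 9. For St3gal5 the sign differed between the title series, at 0.14 in the higher and -0.11 in the lower, and St8sia1 was at -0.012 and 0.15. RNA quality, as the log2 difference of 3' over 5' control probe sets, averaged 0.761 ± 0.175 (SD, n = 17) in deficient and 0.616 ± 0.145 (SD, n = 7) in wild type tumours.

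In marrow no member was called either, in a fit of 3 against 2 samples that called 4 genes, 0.022% of all. Cd276 was the member with an unadjusted p under 0.05, against 4.05% of all genes. Its values of 4.44, 4.62 and 4.54 in deficient marrow all lay below 5.53 and 4.84 in wild type marrow, an order without overlap that 9.0% of all genes had in this direction. The log2 difference was -0.66 (SE 0.24, unadjusted limma p = 0.0246, adjusted p = 0.9996), -0.31 when wild type marrow 1 was left out and -1.001 when wild type marrow 2 was. Differences of the other members lay between -0.090 for St3gal2 and 0.27 for St8sia1, and the intervals of Cd276 and St8sia1 reached 1.20 and 1.16 in size, beyond a 2-fold difference in signal. The 2 marrow groups were also split by Xist, at 11.9 ± 0.31 in deficient and 5.65 ± 0.77 in wild type samples, so that genotype and this split cannot be told apart.

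The difference of the genotype effect between marrow and tumours was tested as an interaction, which called 58 genes, 0.319% of all, and no member. Cd276 again had the smallest p of the members, at -0.75 (SE 0.22, unadjusted limma p = 0.00222, adjusted p = 0.215), against 7.83% of all genes with an unadjusted p under 0.05. Over the alternatives its adjusted p ran from 0.0167 to 0.9997. It passed after quantile normalization anew (-0.91, adjusted p = 0.0424) and without wild type marrow 2 (-1.09, adjusted p = 0.0167), and it was -0.40 without wild type marrow 1.

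The third question was how the members vary among tumours. Gpc2, L1cam, St8sia5 and St8sia1 were the more variable, with SDs of 0.45, 0.44, 0.38 and 0.36 over the 24 tumours, larger than those of 91.3%, 90.9%, 87.3% and 86.1% of all genes. Gpc2 spanned 2.15 log2 units between the lowest tumour, deficient tumour 13, and the highest, wild type tumour 2. St3gal2, Cd276, St3gal5 and Ncam1 varied less, with SDs of 0.17, 0.21, 0.22 and 0.235, against a median SD of 0.19 over all genes.

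Part of the spread of St8sia1 went with the title numbers. It averaged 10.33 ± 0.20 (SD, n = 14) in tumours of the higher and 9.75 ± 0.23 (SD, n = 10) in tumours of the lower series, a difference of 0.58 (SE 0.09, limma adjusted p = 0.000111 with genotype in the model). That comparison, added after the data were seen, called 1438 genes, 7.9% of all, and no other member. Gpc2 stood at 6.24 ± 0.43 in the higher and 6.69 ± 0.36 in the lower series (difference -0.46, adjusted p = 0.0801), B4galnt1 at -0.27 (adjusted p = 0.0841) and St3gal5 at 0.24 (adjusted p = 0.0654).

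Of the 36 pairs of members, 3 were correlated over the 24 tumours after adjustment (8.33% of pairs). Ncam1 and L1cam had r = 0.686 (rho = 0.663, permutation p = 0.00023, adjusted p = 0.00414), which was 0.545 in the higher series (n = 14, permutation p = 0.0452) and 0.878 in the lower (n = 10, permutation p = 0.00037). It was 0.579 without the 2 tumours farthest from the median of Ncam1. B4galnt1 and Cd276 had r = 0.686 (rho = 0.656, permutation p = 0.0002, adjusted p = 0.00414), 0.608 without the 2 farthest tumours, 0.685 in the higher series (permutation p = 0.00688) and 0.334 in the lower (permutation p = 0.335). St8sia1 and St3gal5, which were at opposite ends between the tissues, had r = 0.646 among tumours (rho = 0.666, permutation p = 0.00061, adjusted p = 0.00732) and 0.622 without the 2 farthest. Within the series this last relation did not hold at the same threshold, with r = 0.486 in the higher (permutation p = 0.0785) and 0.334 in the lower (permutation p = 0.372). St3gal5 also correlated with that 3' over 5' control difference (r = 0.557, rho = 0.497, permutation p = 0.0047, adjusted p = 0.0423 over the 9 members), whose part in these values was not tested, while St8sia1 had r = 0.167 with it. Ncam1 had r = 0.487 with it (rho = 0.549, permutation p = 0.0168, adjusted p = 0.0757).

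**Figure D4:**
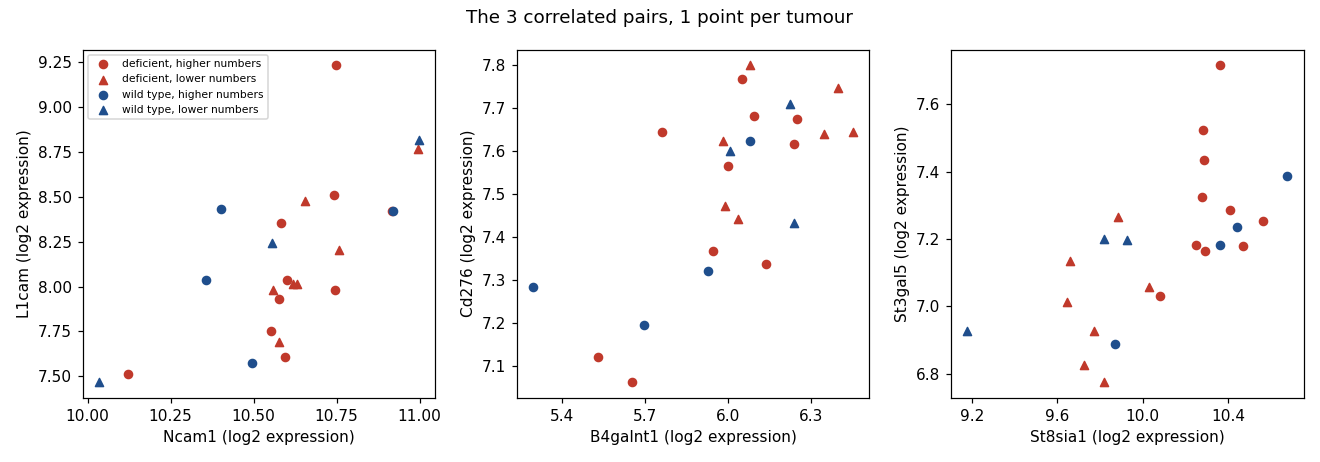
Log2 expression of the 3 correlated pairs, 1 point per tumour, in red for deficient and blue for wild type tumours, with circles for the higher and triangles for the lower series of title numbers. Ncam1 with L1cam mixes the series. In B4galnt1 with Cd276 the low end of B4galnt1 holds only circles, down to 5.29, while the lowest triangle is at 5.98. In St8sia1 with St3gal5 most triangles lie at the low end of St8sia1.

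Marker lists of cell types were set against each member over the same tumours, 135 relations in all, of which 6 passed after adjustment (4.44%). Ncam1 correlated positively with the mean of the sympathoadrenal list (r = 0.727, rho = 0.484, permutation p = 7e-05, adjusted p = 0.00945), with r = 0.484 in the higher (permutation p = 0.0798) and 0.945 in the lower series, and r was 0.572 without the 2 tumours farthest on the list. L1cam did so with the same list (r = 0.654, rho = 0.613, permutation p = 0.0005, adjusted p = 0.0338, 0.492 in the higher and 0.870 in the lower series, 0.618 without the 2 farthest). L1cam correlated negatively with the cell cycle list (r = -0.635, rho = -0.617, permutation p = 0.0008, adjusted p = 0.036, -0.723 and -0.470 in the higher and lower series, -0.536 without the 2 farthest). It also did so with the macrophage list (r = -0.620, rho = -0.541, permutation p = 0.0011, adjusted p = 0.0371, -0.516 and -0.776 in these series), where r was -0.377 without the 2 farthest tumours. Gpc2 had r = -0.591 with the Schwann cell list (rho = -0.411, permutation p = 0.00207, adjusted p = 0.0495, -0.591 and -0.640 in these series, -0.546 without the 2 farthest). With the adrenal cortex list it had r = -0.592 (rho = -0.391, permutation p = 0.0022, adjusted p = 0.0495, -0.551 and -0.331 in these series), which was -0.390 without the 2 farthest. The Schwann cell list averaged 5.11 in deficient and 5.17 in wild type tumours, against 5.13 in deficient and 5.15 in wild type marrow. The adrenal cortex list averaged 4.53 and 4.50 in these tumours, against 4.68 and 4.74 in marrow. Whether either list tracks the amount of its cell type in these tumours was not tested. After adjustment 0 of the 135 relations passed by Spearman's rho, and 0 by r without the 2 tumours farthest on each list. The r of L1cam with macrophage and of Gpc2 with adrenal cortex markers moved most without those tumours, while rho was close to r for L1cam with the sympathoadrenal and cell cycle lists. For Cd276, St8sia1, St3gal5, B4galnt1, St3gal2 and St8sia5 no marker list passed.

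**Figure D5:**
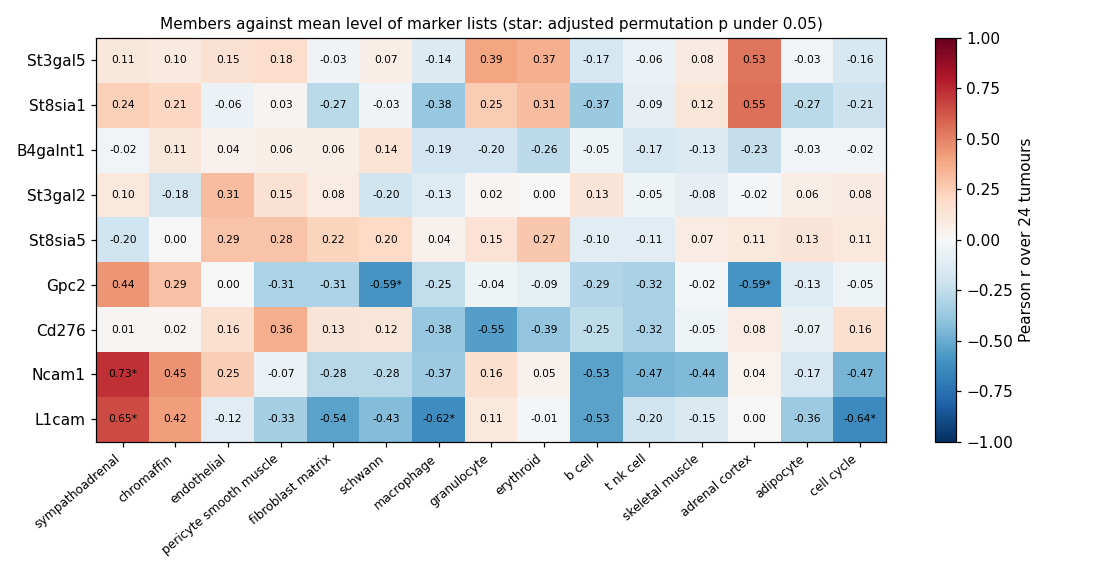
Pearson r over 24 tumours between each member (rows) and the mean level of each marker list (columns), from -1 in blue to 1 in red, with a star where the adjusted permutation p is under 0.05. Stars stand at Ncam1 and L1cam with sympathoadrenal markers, at L1cam with macrophage and cell cycle markers and at Gpc2 with Schwann cell and adrenal cortex markers.

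The genes whose levels over the 24 tumours were most like each member, by Pearson r after centring within genotype, are given as a description. For Ncam1 they were Dbh, which encodes dopamine beta-hydroxylase (r = 0.861, and 0.893 in the higher and 0.965 in the lower series), Dusp26 (0.818) and Csdc2 (0.788). For L1cam they were Trim2 (0.876), Sult4a1 (0.875) and Cep170b (0.874). For Cd276 they were Cdc123 (0.843), Nup188 (0.811) and Albfm1 (0.785), and for Gpc2 Psg23 (0.785), Micall1 (0.757) and Slc25a27 (0.749). For B4galnt1 they were Sdhc (0.867), Gcn1 (0.819) and Csnk1g2 (0.787), and for St3gal2 Crlf3 (0.828), Hook3 (0.789) and Kantr (0.762). For St3gal5 they were Mcrip1 (0.767), Vps37c (0.761) and Ttc13 (0.757), and for St8sia5 Elac2 (0.764), Aplp2 (0.757) and Apob (0.756). For St8sia1 they were Rpgrip1 (0.835), Zfp729a (0.799) and Zc3h4 (0.791), whose r lay between 0.148 and 0.485 in the higher and between 0.238 and 0.381 in the lower series. All of these tumours share 1 normalization, and the r values carry no test.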

How the data were processed

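RNA of 24 tumours and 5 marrow samples was labelled by an amplification of repeated cycles, per the labels' protocols, and hybridised to Affymetrix mouse arrays. The deposited values are log2 expression after RMA, with Partek 6.6 named in the submitters' processing notes; further settings and the genome build are not given in the sources used here. The table holds 45101 probe sets, of which 64 controls were left out; 34945 have 1 gene symbol in the platform annotation. Values ran from 1.87 to 14.4 and array medians from 4.78 to 4.91. The number of arrays limits the precision.

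Groups follow the genotype and tissue labels. Tests used limma 3.58.1 (lmFit, eBayes) in R 4.3.3 on all 18193 genes, without a filter, with Benjamini-Hochberg adjustment, and were tested on simulated data. Genotype was tested within each tissue. Correlations over tumours used two-sided permutation tests with 100000 resamples. The members and lists were chosen with earlier results of these data known. Named genes are the members, the up to 4 called genes of largest tissue difference in each list, Casp8, and the 3 genes most like each member. Xist, Slc6a2, Glb1 and the further relatives of the surface targets named for their dim signal fall outside this rule. They were named after their values were seen. Of the members, 5 matched a RefSeq promoter by symbol. Alternatives covered the choice of probe set, a minimum mean of 5, scaling, weights, title series and each sample left out.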

Additional observations from a re-analysis of the deposited data

How the results depend on the processing

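The number of arrays and, for dim probe sets, the missing detection calls limit these results. No paired analysis was possible because the titles give no replicate number shared between groups. Of 391 alternative values for the members between tumours and marrow, 384 kept direction and call, 6 turned sign and 1, an Ncam1 probe set at 0.17, lost its call. The sign turned for St8sia5 with scaling over the 18193 genes (-0.13 centred on medians, -0.074 after quantile normalization anew). It also turned for the other probe sets of B4galnt1 (0.30), Ncam1 (-0.16, -0.049) and L1cam (-0.16). The cause was not tested.

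Counts of called genes moved as follows. Between tissues 9170 genes were called with a minimum mean of 5, fewer genes being tested, and 12589 to 13944 with a sample left out. Between genotypes 1 gene was called in tumours with the most variable probe set. In marrow 2 were called with probe sets averaged, 2 with the minimum mean and 83 in a fit over all groups. For the interaction the count was 19 with the minimum mean, 124 after quantile normalization, 13 with array weights, 12 in the higher title series and 32 to 422 with a sample left out. Of the pairs, 5 were called in the lower series and 0 in the higher. Of the 3 pairs called over all tumours, only Ncam1 with L1cam was among those 5. The others were St8sia1 with Ncam1 (r = 0.87 in the lower series, 0.30 over all tumours) and with L1cam (0.80, 0.26). Gpc2 with Ncam1 (0.86, 0.24) and with L1cam (0.85, 0.38) completed them. Wild type tumour 1 was the lowest of the lower series in St8sia1 (9.18), Ncam1 (10.03), L1cam (7.47) and Gpc2 (6.16). Its part in these 5 relations was not tested. Of the marker relations 3 were called with probe sets averaged, and 0 by Spearman, in the lower series, in the higher series or without the 2 farthest tumours.

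No genotype difference of a member was called, and small ones turned sign. In tumours these were St8sia1 (-0.012, higher series), St3gal5 (-0.11, lower series), L1cam (-0.012 centred on medians, -0.099 with weights, -0.012 in the lower series) and 2 Ncam1 probe sets (-0.039, -0.085). In marrow they were St8sia1 (-0.016 averaged, -0.47 for a probe set), L1cam (-0.012 averaged, -0.12 for a probe set) and 2 Ncam1 probe sets (-0.050, -0.17). For the interaction they were St8sia1 (-0.12 averaged, -0.020 with weights, -0.0011 and -0.57 for probe sets), St3gal5 (-0.080, higher series), St8sia5 (0.033 after quantile normalization, 0.093 with weights), L1cam (-0.029 averaged, -0.15 for a probe set), B4galnt1 (0.017) and 4 Ncam1 probe sets (-0.011, -0.30, -0.016, -0.055).

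With a sample left out, the tumour differences ran from -0.17 to 0.088 for Gpc2, -0.11 to 0.12 for L1cam, -0.0061 to 0.077 for St3gal5 and -0.078 to 0.17 for St8sia1. Those in marrow ran from -0.020 to 0.11 for B4galnt1, -0.11 to 0.29 for L1cam, -0.16 to 0.55 for Ncam1, -0.44 to 0.26 for St3gal2, -0.11 to 0.56 for St8sia1 and -0.0080 to 0.38 for St8sia5. The interaction ran from -0.15 to 0.029 for B4galnt1, -0.11 to 0.29 for L1cam, -0.26 to 0.45 for Ncam1, -0.52 to 0.19 for St3gal2, -0.033 to 0.063 for St3gal5, -0.18 to 0.49 for St8sia1 and -0.20 to 0.19 for St8sia5. A group left with 1 sample was assumed to vary like the others.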

Other observations

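The probe set assigned to both Gpc2 and the sulfotransferase gene Gal3st4 was kept out of the gene values above. It averaged 3.73 ± 0.33 (SD, n = 24) in tumours and 3.83 ± 0.28 (SD, n = 5) in marrow, where the probe set of Gpc2 alone averaged 6.43 ± 0.45 and 3.50 ± 0.21. The mean of the skeletal muscle markers reached 9.25 in a deficient and 8.03 in a wild type tumour, against lowest values of 4.07 and 4.17 in these groups; 0 of its 8 genes were called higher in tumours than in marrow.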
